A study of Mus musculus with 6 samples.

Results

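Transcripts of 10 genes of innate inflammation were measured in preparations labelled as oligodendrocyte precursor cells (OPCs) from wildtype and DISC1-Δ3 mice. They were the cytokine genes Tnf, Il1a, Il1b, Il18 and Il10, the interleukin-1 antagonist gene Il1rn, the inflammasome sensor gene Nlrp3, and the NF-kB feedback genes Nfkbia, Nfkbiz and Tnfaip3. The genes were chosen by symbol, and all 10 were among the 18211 genes of the expression table. Of them, 9 were among the 13792 genes tested, and Il10 was below the filter on low values. OPCs are dividing glial cells from which the myelin-forming oligodendrocytes arise. They were collected from the brains of C57BL/6 pups at P7 by immunopanning, in which cells are caught on a dish coated with an antibody, here against Pdgfrα. RNA was sequenced from the fresh cells in 3 libraries per genotype, and both genotypes had received tamoxifen by gavage from P4 to P7.

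The DISC1-Δ3 pups were NG2-CreERTM: DISC1 exon3 fl/+ mice, in which tamoxifen lets a Cre recombinase remove exon 3 from 1 allele of Disc1 in cells that use the NG2 promoter. The wildtype mice carried no CreERT. The recombinase and the loss of exon 3 cannot be told apart in this design. Nothing in the descriptions says that the libraries came from separate animals or litters, and the p-values measure the spread between these libraries. The NG2 promoter is used by OPCs and pericytes, and nothing in the descriptions places the recombinase in microglia.

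In the brain, TNF and interleukin-1 are made mainly by microglia, the resident macrophages. Receptor signals and danger signals release the transcription factor NF-kB from its inhibitor IκBα, the product of Nfkbia, and NF-kB then switches on cytokine genes together with its own inhibitors. Interleukin-1α is active as it is made, whereas the precursors of interleukin-1β and interleukin-18 are cut by caspase-1 after an inflammasome such as that of NLRP3 has assembled.

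The stretch just upstream of a listed transcript start is shown for 6 of the genes, because NF-kB can bind there and transcription starts at its end. The sequences are from RefSeq on GRCm38.p6, the assembly that mm10 denotes, and each holds the 200 bases before the start listed farthest upstream, written 5′ to 3′ on the strand of the gene. They lie at chr17:35202008-35202207 (minus strand, Tnf), chr2:129309973-129310172 (minus, Il1a), chr2:129371140-129371339 (minus, Il1b), chr11:59541369-59541568 (plus, Nlrp3), chr12:55492648-55492847 (minus, Nfkbia) and chr10:19015411-19015610 (minus, Tnfaip3). The annotated gene reaches farther upstream than the listed start for Il1a, whose stretch lies within it, and for Il1b, whose stretch overlaps its end. Capitals mark the NF-kB consensus on either strand and the TATA box TATAAA on the strand of the gene.
Tnf: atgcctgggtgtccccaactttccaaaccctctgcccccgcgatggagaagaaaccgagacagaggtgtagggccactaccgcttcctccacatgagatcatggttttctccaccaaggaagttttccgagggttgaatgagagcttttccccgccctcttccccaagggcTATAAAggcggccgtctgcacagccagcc
Il1a: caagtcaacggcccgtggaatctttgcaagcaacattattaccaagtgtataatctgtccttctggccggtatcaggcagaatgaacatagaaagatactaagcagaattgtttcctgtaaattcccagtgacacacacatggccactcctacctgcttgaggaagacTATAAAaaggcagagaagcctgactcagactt
Il1b: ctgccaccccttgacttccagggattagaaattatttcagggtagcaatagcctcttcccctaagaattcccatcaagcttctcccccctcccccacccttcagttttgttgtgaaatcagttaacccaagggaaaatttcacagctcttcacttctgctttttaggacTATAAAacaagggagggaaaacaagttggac
Nlrp3: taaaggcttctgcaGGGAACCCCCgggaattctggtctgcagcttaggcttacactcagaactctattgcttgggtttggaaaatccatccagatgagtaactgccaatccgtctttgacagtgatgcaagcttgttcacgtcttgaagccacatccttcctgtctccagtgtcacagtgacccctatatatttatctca
Nfkbia: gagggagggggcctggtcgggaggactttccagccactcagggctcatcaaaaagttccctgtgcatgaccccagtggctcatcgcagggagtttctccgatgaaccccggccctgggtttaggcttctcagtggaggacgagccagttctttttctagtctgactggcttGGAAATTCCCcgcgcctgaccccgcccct
Tnfaip3: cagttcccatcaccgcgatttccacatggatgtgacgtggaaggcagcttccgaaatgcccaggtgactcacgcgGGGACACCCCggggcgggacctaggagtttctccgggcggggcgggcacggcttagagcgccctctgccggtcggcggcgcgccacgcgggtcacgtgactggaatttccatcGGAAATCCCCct

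Windows from 250 bases before to 50 after a start were available for 8 of the 10 genes, Il10 and Nfkbiz being the others. On the strand of the gene, TATAAA lay at position -29 of Tnf, -32 of Il1a and -31 of Il1b, so the 3 cytokine genes shown have it at nearly the same distance. It also lay at -225 of Tnfaip3, before the stretch shown. On the opposite strand it lay at positions 15 to 20 from a start of Il1rn, -175 to -170 of Il18 and 20 to 25 of Nfkbia. With both strands and any position counted, 7 of the 8 genes and 15.7% of all 27025 genes had TATAAA in a window. It was present in 13.6% of all 32851 windows. The NF-kB consensus lay in the windows of Nlrp3 (-186 to -177), Nfkbia (-29 to -20) and Tnfaip3 (-125 to -116 and -12 to -3). With both strands counted, it was present in 8.46% of all windows and for 9.55% of all genes. The AP-1 motif TGANTCA began at position -12 of Il1a, -141 of Il1rn and -136 of Tnfaip3. It was present in 7.81% of all windows and for 8.97% of all genes. These are matches of letters and not measured binding, and sequence outside the windows was not searched. Il1a and Il1b lie beside each other on chromosome 2, with 54382 bases between them and 2 annotated genes in the gap, a small nuclear RNA and a pseudogene.

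The libraries held 13716619 to 16417219 reads assigned to genes, so that 1 read was worth 0.0609 to 0.0729 CPM, a count scaled to 1e6 reads of the library. Levels are given as RPKM, the CPM of a gene for each kilobase of its transcript. Differences are log2 fold changes of DISC1-Δ3 over wildtype, from edgeR's quasi-likelihood test on read counts, with Benjamini-Hochberg adjustment of the p-values over the whole set of tested genes. A gene was called lower or higher at an adjusted p under 0.05. Replicate 3 of DISC1-Δ3 stood apart from its group, since its counts differed from replicates 2 and 1 by a chi-square of 4.82 and 5.07 for each degree of freedom, where the other pairs of 1 genotype gave 1.79 to 2.85. Disc1 itself had 3.55 ± 0.238 RPKM (SD, n = 3) in wildtype and 2.72 ± 0.240 RPKM in DISC1-Δ3 libraries (log2 fold change -0.45, SE 0.088, adjusted p = 5.28e-04). Its count covers the whole gene and does not show exon 3 alone. Cspg4, which encodes NG2, had 15.8 ± 1.38 and 23.0 ± 1.41 RPKM (log2 fold change 0.46, adjusted p = 1.16e-05).

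The preparations held more than OPCs. All 22 microglia markers were detected, and the complement genes C1qa, C1qb and C1qc stood at 3312, 3099 and 3269 RPKM in wildtype libraries. Olig1, the OPC marker with the highest level, stood at 251.5 RPKM there, and Pdgfra, the target of the panning antibody, at 17.5 RPKM. The microglia markers together took 3.09 to 3.12% of the reads of wildtype libraries and 2.25 to 2.33% of the reads of DISC1-Δ3 libraries. Of the 22, 21 were lower in DISC1-Δ3 libraries, with a median log2 fold change of -0.49 and a range from -0.71 (Ly86) to -0.06 (P2ry13, not called). Of the 8 OPC markers 6 were higher and 1 lower, with a median of 0.47. The ratio of Csf1r, the receptor that microglia need to survive, to Pdgfra was 106.7 ± 1.85 in wildtype and 51.2 ± 1.93 in DISC1-Δ3 libraries. In bulk RNA, fewer cells of a type and less RNA per cell cannot be told apart. The part that the microglia markers have in the results below was not tested. The 10 genes and the counts of the pathway lists are therefore also given on a second scale, relative to the summed reads of the microglia markers.

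Of the 9 tested genes, 4 were lower in DISC1-Δ3 libraries (Il1b, Nfkbia, Nfkbiz and Tnfaip3), 2 were higher (Il1rn and Nlrp3) and 3 were not called (Tnf, Il1a and Il18). Among all tested genes, 19.5% were called lower and 20.4% higher. In either direction it was 39.9% of all tested genes, so a count of 6 among 9 is no sign of anything particular to these genes. The median log2 fold change was -0.11 over the 9 genes and 0.01 over all tested genes. The genes did not move in 1 direction, and the sizes ran from 2.59-fold lower for Il1b to 1.75-fold higher for Il1rn in mean RPKM.

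**Figure D1:**
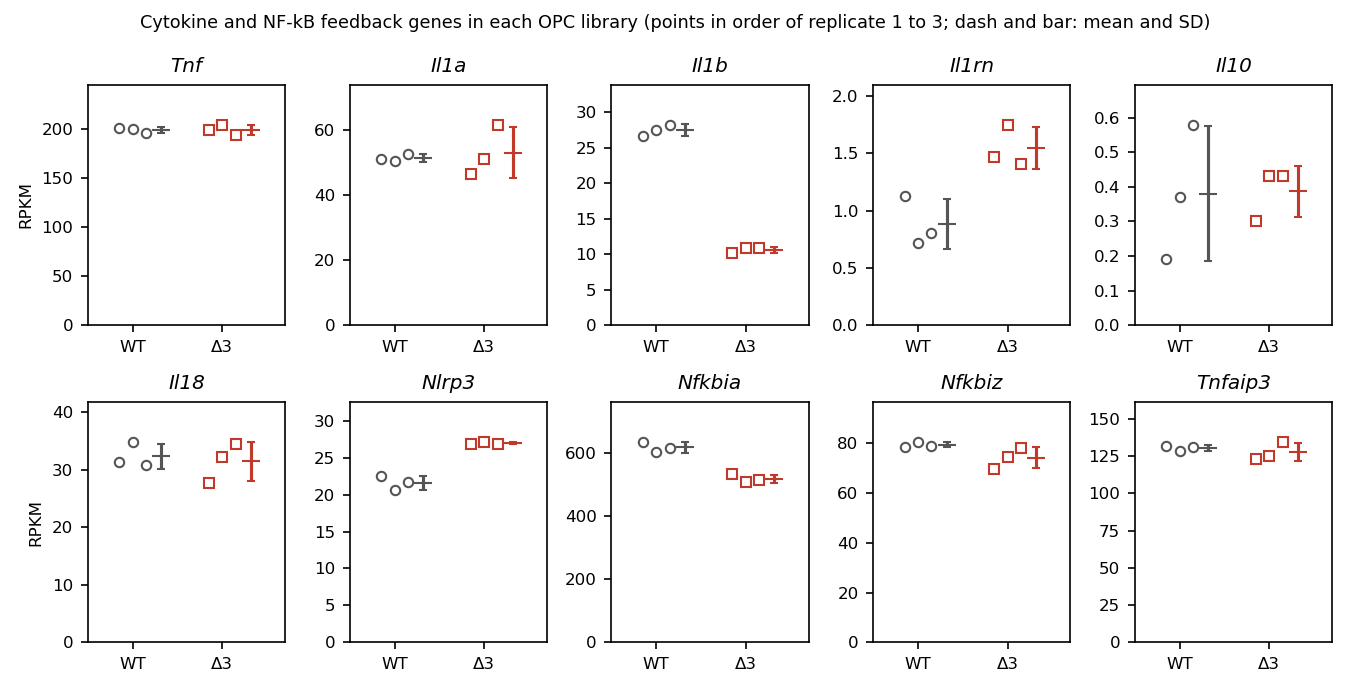
RPKM of each of the 10 genes (vertical axes, each from 0 and on its own scale) in the 3 wildtype (WT, grey circles) and 3 DISC1-Δ3 (Δ3, red squares) libraries, with the dash and bar giving the mean and SD. Il1b sits between 26.7 and 28.3 RPKM in wildtype and between 10.1 and 10.8 RPKM in DISC1-Δ3 libraries, whereas the groups of Tnf, Il1a, Il18, Il10 and Tnfaip3 overlap.

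Il1b, which encodes the interleukin-1β precursor, differed most among the lower genes. Its RPKM was 26.7, 27.5 and 28.3 in wildtype replicates 1 to 3, against 10.1, 10.8 and 10.8 in DISC1-Δ3 replicates 1 to 3. The groups lay far apart, and the highest DISC1-Δ3 library was well under the lowest wildtype library. The read counts were 443, 553 and 562 in wildtype, against 175, 211 and 212 in DISC1-Δ3 libraries, so each value rested on more than 100 reads. The mean RPKM was 27.5 ± 0.791 and 10.6 ± 0.407 (SD, n = 3), and it fell by 61.4%. The log2 fold change was -1.46 (SE 0.083, 95% interval -1.64 to -1.29, adjusted p = 1.84e-10). The two-sided exact permutation test of the means gave p = 0.1, the smallest that 3 libraries against 3 allow. Of all tested genes, 53 (0.384%) had a log2 fold change as low as that of Il1b or lower. It was also below each of the 22 microglia markers, the lowest of which was Ly86 at -0.71. Per 1000 microglia marker reads, Il1b had 1.04, 1.09 and 1.10 reads in wildtype and 0.527, 0.561 and 0.586 reads in DISC1-Δ3 libraries. On that scale the groups remained separate, and the log2 fold change was -0.95 (SE 0.085, adjusted p = 4.15e-07).

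Il1a, the neighbour of Il1b, encodes interleukin-1α, which acts through the same receptor. It had 51.2, 50.4 and 52.7 RPKM in wildtype and 46.4, 51.1 and 61.7 RPKM in DISC1-Δ3 libraries. The DISC1-Δ3 libraries lay on both sides of the wildtype libraries, with replicate 3 the highest of the 6. The log2 fold change was -0.04 (SE 0.073, 95% interval -0.20 to 0.11, adjusted p = 0.682), so a difference past these bounds was not seen, and smaller ones could not be resolved. Its sign depended on the scaling. The log2 fold change was 0.05 (adjusted p = 0.687) when libraries were scaled by their summed RPKM, and 0.03 in limma on log2(RPKM + 1). Without DISC1-Δ3 replicate 1 it was 0.02 (adjusted p = 0.824), and without replicate 3 it was -0.16 and called lower (adjusted p = 0.0149).

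Tnf, which encodes the cytokine TNF, had the highest level of the 5 cytokine genes. Its RPKM was 200.4, 200.2 and 195.6 in wildtype, against 198.8, 204.4 and 193.6 in DISC1-Δ3 libraries. The groups overlapped fully, and the means were 198.7 ± 2.73 and 198.9 ± 5.39 RPKM (SD, n = 3; two-sided exact permutation test p = 1). With TMM scaling the log2 fold change was -0.08 (SE 0.043, 95% interval -0.17 to 0.01, adjusted p = 0.157). It was 0.01 with scaling by summed RPKM and 0.00 in limma, so no direction can be given for Tnf.

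Il18 encodes a cytokine of the interleukin-1 family that is cut by caspase-1 like interleukin-1β. It had 31.3, 34.9 and 30.8 RPKM in wildtype and 27.8, 32.2 and 34.5 RPKM in DISC1-Δ3 libraries. The groups overlapped, and the means were 32.4 ± 2.21 and 31.5 ± 3.40 RPKM. The log2 fold change was -0.17 (SE 0.078, 95% interval -0.34 to -0.01, adjusted p = 0.0866), which missed the threshold. Without DISC1-Δ3 replicate 3 it was -0.24 and called (adjusted p = 0.0125).

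Il1rn encodes the secreted antagonist that occupies the interleukin-1 receptor without signalling. Its RPKM was 1.13, 0.72 and 0.80 in wildtype, against 1.47, 1.75 and 1.41 in DISC1-Δ3 libraries. All DISC1-Δ3 libraries were above all wildtype libraries, and the gap between wildtype replicate 1 and DISC1-Δ3 replicate 3 was small. The counts were low, with 36, 27 and 30 reads in wildtype and 48, 66 and 53 reads in DISC1-Δ3 libraries. The mean rose from 0.883 ± 0.217 to 1.54 ± 0.182 RPKM, and the log2 fold change was 0.75 (SE 0.22, 95% interval 0.28 to 1.22, adjusted p = 0.0126). The call was lost without wildtype replicate 2 (log2 fold change 0.62, adjusted p = 0.0710), wildtype replicate 3 (0.69, adjusted p = 0.0540) or DISC1-Δ3 replicate 2 (0.62, adjusted p = 0.0643).

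Il10, which encodes an anti-inflammatory cytokine, was close to the limit of detection. It had 3, 7 and 11 reads in wildtype and 5, 8 and 8 reads in DISC1-Δ3 libraries, at 0.19 to 0.58 and 0.30 to 0.43 RPKM. The groups overlapped, and a difference was not detectable at this depth. In the fit without a filter on low values, the log2 fold change of Il10 was -0.08, with a 95% interval from -1.22 to 1.06 (adjusted p = 0.937).

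Because Il1b fell while Il1a and Tnf did not pass the test, ratios within each library were formed, a choice made after the values were seen. The ratio of Il1b to Il1a RPKM was 0.521, 0.546 and 0.536 in wildtype, against 0.218, 0.212 and 0.176 in DISC1-Δ3 libraries. A ratio of 2 genes in 1 library does not depend on how that library is scaled, and here the groups were separate by more than 2-fold. The mean ratio was 2.64-fold lower in DISC1-Δ3 libraries, 0.202 ± 0.0231 against 0.534 ± 0.0123 (SD, n = 3; two-sided exact permutation test p = 0.1). The ratio of Il1b to Tnf was 0.138 ± 0.00573 in wildtype and 0.0533 ± 0.00251 in DISC1-Δ3 libraries. The ratio of Il1a to Tnf, by contrast, was 0.259 ± 0.0094 and 0.267 ± 0.0452, with overlapping groups. The ratio of the antagonist Il1rn to Il1b was 0.0424, 0.0262 and 0.0283 in wildtype, against 0.145, 0.161 and 0.130 in DISC1-Δ3 libraries. That was 4.51-fold higher in the mean, without overlap (two-sided exact permutation test p = 0.1).

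**Figure D2:**
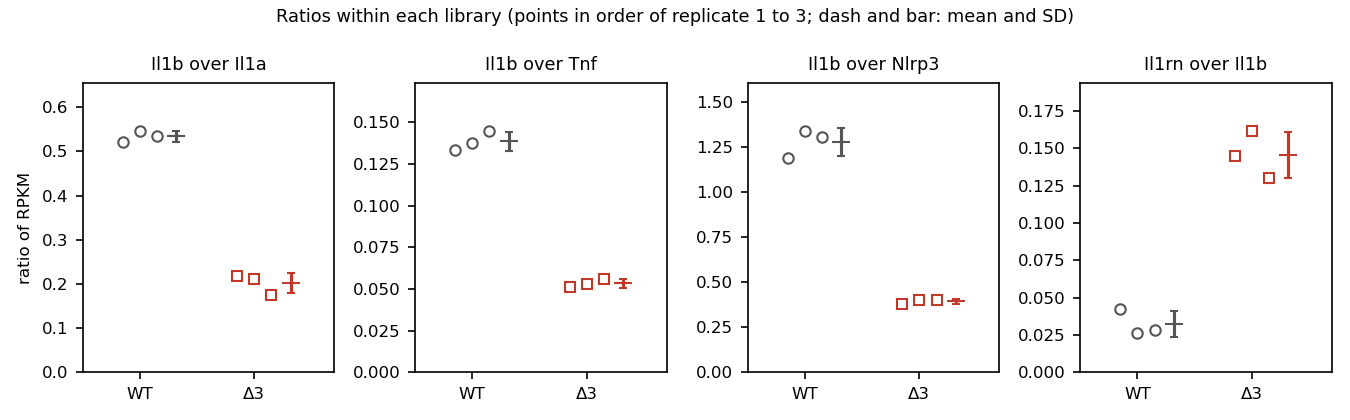
Ratios of RPKM within each library (vertical axes, each from 0) for 4 pairs of genes, in the 3 wildtype (WT, grey circles) and 3 DISC1-Δ3 (Δ3, red squares) libraries, with the dash and bar giving the mean and SD. Il1b over Il1a, Tnf or Nlrp3 was lower in every DISC1-Δ3 library than in every wildtype library, and Il1rn over Il1b was higher, at 0.130 to 0.161 against 0.0262 to 0.0424.

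Nlrp3, which encodes the sensor of the inflammasome that leads to the cutting of interleukin-1β, went the other way from Il1b. It had 22.5, 20.6 and 21.7 RPKM in wildtype and 26.9, 27.1 and 26.9 RPKM in DISC1-Δ3 libraries. The DISC1-Δ3 libraries were nearly equal and all above the wildtype libraries. The mean rose by 24.9%, from 21.6 ± 0.942 to 27.0 ± 0.153 RPKM, on 1172 to 1660 reads per library. With TMM scaling of the counts the fitted log2 fold change was 0.24 (SE 0.051, 95% interval 0.13 to 0.34, adjusted p = 0.00137). This is a fold of 1.18, smaller than the rise in RPKM. The ratio of Il1b to Nlrp3 was 1.28 ± 0.0789 in wildtype and 0.393 ± 0.0142 in DISC1-Δ3 libraries.

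Nfkbia encodes IκBα, which holds NF-kB in the cytoplasm and is itself induced by NF-kB. It was the most abundant of the 10 transcripts, at 634.9, 601.9 and 614.3 RPKM in wildtype and 531.6, 507.8 and 514.1 RPKM in DISC1-Δ3 libraries. The groups did not overlap. The mean fell by 16.1%, from 617.0 ± 16.6 to 517.8 ± 12.3 RPKM. With TMM scaling of the counts the fitted log2 fold change was -0.33 (SE 0.041, 95% interval -0.42 to -0.25, adjusted p = 4.11e-06). This is a fold of 0.794, a larger fall than in RPKM. The microglia marker with the most similar deviations over the 6 libraries was Itgam, an integrin subunit, whose log2 fold change was also -0.33. The root mean square difference between the 2 genes' deviations of log2 CPM was 0.0227.

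Nfkbiz encodes IκBζ, a nuclear partner of NF-kB that is needed for a subset of its secondary targets. It had 78.5, 80.4 and 78.9 RPKM in wildtype and 69.7, 74.3 and 78.1 RPKM in DISC1-Δ3 libraries. The groups did not overlap, although DISC1-Δ3 replicate 3 came within 1 RPKM of the lowest wildtype library. Its log2 fold change was -0.18 (SE 0.045, adjusted p = 0.00378), and the call was lost with scaling by summed RPKM (-0.09, adjusted p = 0.109) and in limma (adjusted p = 0.115 with a pseudocount of 1).

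Tnfaip3 encodes a ubiquitin-editing enzyme that shuts off signalling to NF-kB. It had 132.2, 128.2 and 131.0 RPKM in wildtype and 123.2, 125.3 and 134.7 RPKM in DISC1-Δ3 libraries, and DISC1-Δ3 replicate 3 was the highest of the 6. The means were 130.5 ± 2.06 and 127.7 ± 6.11 RPKM. The log2 fold change of -0.11 (SE 0.042, 95% interval -0.20 to -0.02, adjusted p = 0.0402) barely passed the threshold. The call was lost with scaling by summed RPKM (-0.03, adjusted p = 0.650) and in limma. It was also lost when any library but DISC1-Δ3 replicate 3 was left out, at adjusted p = 0.0874 to 0.118. The ratio of Nfkbia to Tnfaip3 was 4.73 ± 0.0632 in wildtype and 4.06 ± 0.249 in DISC1-Δ3 libraries, without overlap (two-sided exact permutation test p = 0.1).

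By RPKM, the groups did not overlap for 5 of the 9 tested genes, Il1b, Nfkbia and Nfkbiz below and Il1rn and Nlrp3 above wildtype. Among all tested genes, the RPKM groups did not overlap for 16.1% below and 35.9% above wildtype. In either direction it was 52% of them. When libraries were scaled by summed RPKM, 70% of all calls were higher, against 51.1% with TMM.

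The second scale changed the call of 6 of the 9 tested genes, Tnf, Il1a, Il18, Nfkbia, Nfkbiz and Tnfaip3. With each library scaled by its summed microglia markers, only Il1b was lower and the other 8 tested genes were higher in DISC1-Δ3 libraries. The background on this scale was lopsided, with 2.19% of all tested genes lower, 79% higher and a median log2 fold change of 0.52. Il1rn was at 1.26 (SE 0.22, adjusted p = 1.55e-04) and Nlrp3 at 0.75 (SE 0.051, adjusted p = 4.30e-08), where the test is against no change and not against that median. Il1a was at 0.47, Tnf at 0.43, Tnfaip3 at 0.40, Il18 at 0.34, Nfkbiz at 0.33 and Nfkbia at 0.18, and the distance of a gene from the median was not tested.

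On this scale Tnf had 9.73, 9.77 and 9.46 reads per 1000 microglia marker reads in wildtype and 12.89, 13.23 and 12.96 in DISC1-Δ3 libraries. Nlrp3 had 2.76, 2.53 and 2.64 in wildtype, against 4.37, 4.41 and 4.53 in DISC1-Δ3 libraries. Nfkbia had 29.3, 27.9 and 28.3 in wildtype, against 32.8, 31.3 and 32.8 in DISC1-Δ3 libraries. All 3 genes were higher in each DISC1-Δ3 library than in each wildtype library, with the narrowest gap, relative to its level, for Nfkbia. The groups did not overlap for any of the 9 tested genes, where 2.5% of all tested genes were wholly below and 79.4% wholly above wildtype.

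**Figure D3:**
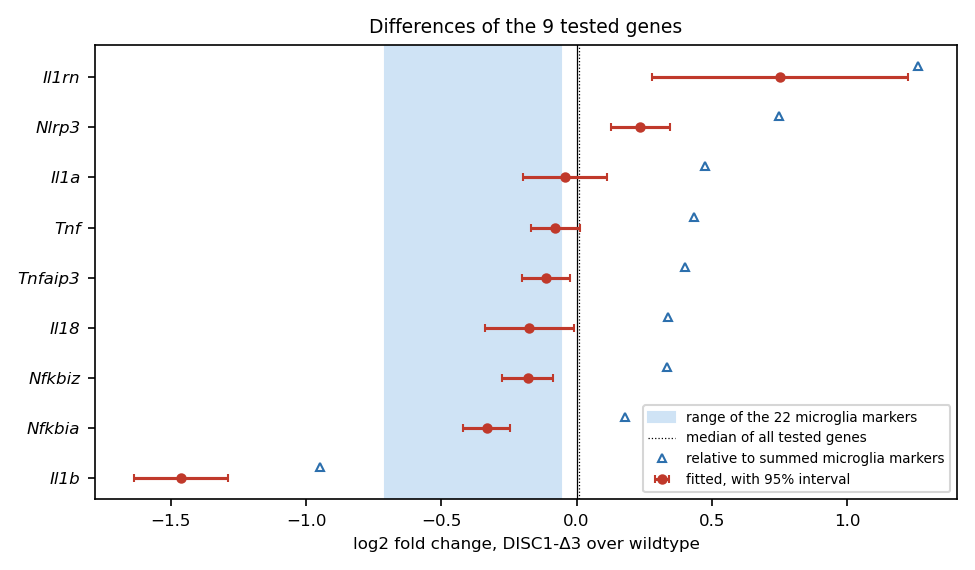
Log2 fold change of DISC1-Δ3 over wildtype (horizontal axis) for the 9 tested genes, with red points and bars for the fit with TMM scaling and its 95% interval, and blue triangles for the fit scaled by summed microglia markers. The shaded band is the range of the 22 microglia markers, -0.71 to -0.06, and Il1b at -1.46 lies below it while Il1rn, Nlrp3 and Il1a lie above it.

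These genes' log2 fold changes were next set beside those of single microglia markers with TMM scaling. Of all tested genes, 37.3% fell in the markers' range of -0.71 to -0.06, and so did Nfkbia, Nfkbiz, Il18, Tnfaip3 and Tnf. The closest marker over the 6 libraries was P2ry13, a purine receptor gene, for Tnf (root mean square difference 0.042), Tnfaip3 (0.051), Il1a (0.114), Nlrp3 (0.152) and Il1rn (0.45). It was P2ry12, its neighbour in the same receptor family, for Nfkbiz (0.0424) and Il18 (0.0688). For Il1b the closest marker was Ly86, which differed by 0.377. The deviations compared include the difference between genotypes, and P2ry13 had the highest log2 fold change of the markers. A gene at or above that level, such as Nlrp3 or Il1rn, tends to be placed nearest to P2ry13 by its fold change alone. The match does not show that a gene follows a marker within a genotype.

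Receptors and binding proteins of these cytokines were lower more often than higher with TMM scaling. Of 12 listed, 11 were tested, and 6 were lower, 1 higher and 4 not called, with a median log2 fold change of -0.32. On the microglia scale 1 was lower, Il10ra, and 4 were higher, namely Tnfrsf1a, Tnfrsf1b, Il1rap and Il10rb. On that scale 2.19% of all tested genes were lower and 79% higher. With TMM scaling those shares were 19.5% and 20.4%, and both pairs of shares apply to each list below. Il10ra, the ligand-binding chain of the interleukin-10 receptor, fell from 85.1 ± 0.988 to 49.8 ± 1.37 RPKM (log2 fold change -0.86, adjusted p = 2.54e-11). Il10rb, the second chain, fell from 41.1 to 34.8 RPKM (-0.32, adjusted p = 1.91e-04), and Tnfrsf1a, the widely expressed TNF receptor, fell from 80.9 to 66.5 RPKM (-0.36, adjusted p = 2.83e-05). The 1 higher gene was Il1rap, which encodes the accessory chain of the interleukin-1 receptor, at 2.96 ± 0.229 and 4.52 ± 0.741 RPKM (0.54, adjusted p = 7.79e-04). Il1r1, the signalling interleukin-1 receptor, was lower at 1.24 and 0.807 RPKM (-0.73, adjusted p = 0.00370). Il1r1, and the genes named here as the few that were higher on a list, were picked after their values were seen.

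Other cytokine genes were split. Of 25 listed, 18 were tested, and 5 were lower, 3 higher and 10 not called, with a median of -0.25. Relative to the microglia markers, 2 were lower and 7 higher. Osm, which encodes oncostatin M, fell from 85.3 ± 1.58 to 52.3 ± 0.373 RPKM (-0.79, adjusted p = 3.10e-10). Il16, a chemoattractant gene, fell from 19.2 to 9.86 RPKM (-0.99, adjusted p = 1.80e-09), and Tgfb1 from 221.6 to 164.3 RPKM (-0.51, adjusted p = 4.20e-07). The 3 higher genes were Il12b, Il34 and Lif. Il12b, the shared chain of interleukin-12 and interleukin-23, had 6, 9 and 10 reads in wildtype and 29, 41 and 40 reads in DISC1-Δ3 libraries (2.04, adjusted p = 3.00e-05). Its RPKM passed the filter in the DISC1-Δ3 libraries alone, so that a gene of this level had to be higher there to be tested. Lif, a cytokine of the interleukin-6 family, rose to 2.87 RPKM in DISC1-Δ3 libraries (0.68, adjusted p = 9.94e-04), and Il34, a ligand of the receptor Csf1r, from 4.98 to 7.35 RPKM (0.46, adjusted p = 0.0207).

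With TMM scaling, the partners of the inflammasome moved opposite to Nlrp3. Of 13 listed, 11 were tested and all 11 were lower, with a median of -0.53, beside 19.5% lower among all tested genes. The lower count was 9 with scaling by summed RPKM, in both limma fits and without wildtype replicate 3 or DISC1-Δ3 replicate 1. It was 10 with DESeq2, no filter, the replicate block, or without wildtype replicate 1 or 2 or DISC1-Δ3 replicate 2. Txnip, a thioredoxin-binding protein gene, fell from 312.3 ± 6.17 to 170.4 ± 3.85 RPKM (-0.96, adjusted p = 3.56e-12). Aim2, a sensor of cytosolic DNA, fell from 12.3 to 7.06 RPKM (-0.88, adjusted p = 3.11e-06). P2rx7, the ATP-gated channel that triggers the NLRP3 inflammasome, fell from 33.7 to 24.8 RPKM (-0.53, adjusted p = 1.23e-07). Ninj1, which ruptures the plasma membrane late in pyroptosis, fell from 93.7 to 80.6 RPKM (-0.30, adjusted p = 2.50e-04). The summed CPM of the list was 1276 to 1292 in wildtype and 783 to 820 in DISC1-Δ3 libraries. The microglia markers fell over the same libraries, by the median of -0.49 given above. On the microglia scale 2 of the 11 partners were lower, Txnip and Aim2, and 2 were higher, Ninj1 and Nek7. Among all tested genes the shares were 2.19% and 79%.

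Enzymes that release the cytokines from cells or precursors were lower for 4 of 6 tested genes, with 1 higher, 1 not called and a median of -0.42. On the microglia scale none was lower and 3 were higher, namely Adam17, Rhbdf1 and Rhbdf2. Casp8 fell from 17.9 to 13.2 RPKM (-0.52, adjusted p = 8.21e-06). Gsdmd, which encodes the pore-forming gasdermin D and is also an inflammasome partner on the list above, fell from 38.9 to 29.5 RPKM (-0.48, adjusted p = 1.05e-05). Adam17, the protease that sheds TNF, fell from 17.9 to 14.7 RPKM (-0.36, adjusted p = 4.21e-05). Its cofactor genes differed from it, since Rhbdf2 was higher (8.10 and 10.8 RPKM, 0.36, adjusted p = 7.08e-04) and Rhbdf1 was not called (23.1 and 24.2 RPKM, -0.02, adjusted p = 0.807).

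Of 12 genes for NF-kB subunits, IκB proteins and IκB kinases, 2 were lower, 1 was higher and 9 were not called, with a median of 0.02, where 39.9% of all tested genes were called. Scaling by summed RPKM gave 1 lower and 4 higher. The microglia scale gave 1 lower and 10 higher, with Ikbkg among the 10. The lower count was 1 without wildtype replicate 3 or DISC1-Δ3 replicate 2, and the higher count 2 without wildtype replicate 1 or DISC1-Δ3 replicate 3. The summed CPM was 648.7 to 664.4 in wildtype and 637.4 to 652.8 in DISC1-Δ3 libraries. Nfkbid, an inducible nuclear IκB gene, fell from 85.7 ± 2.63 to 56.0 ± 3.39 RPKM (-0.70, adjusted p = 1.00e-08). Ikbkg, the regulatory subunit of the kinase, was lower at 3.68 and 3.26 RPKM (-0.26, adjusted p = 0.0275), and Nfkbib, the gene of IκBβ, was higher at 48.1 and 59.6 RPKM (0.22, adjusted p = 0.00362). None of the 5 subunit genes passed the test. Their log2 fold changes were 0.06 for Rela (adjusted p = 0.320), 0.09 for Relb (0.443), -0.10 for Rel (0.393), 0.05 for Nfkb1 (0.514) and 0.18 for Nfkb2 (0.0507). The kinase genes Chuk at -0.13 and Ikbkb at -0.01, and the IκB family genes Nfkbie at 0.18 and Bcl3 at -0.25, were not called either (adjusted p = 0.308, 0.934, 0.0912 and 0.0931).

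Among 19 adaptors and kinases upstream of NF-kB, 9 were lower, 1 was higher and 9 were not called, with a median of -0.15. The lower count was 5 with scaling by summed RPKM and 5 without wildtype replicate 1, and on the microglia scale none was lower and 11 were higher. Tab2, an adaptor of the kinase TAK1, fell from 37.7 to 28.5 RPKM (-0.49, adjusted p = 2.11e-06). The kinase genes Map3k8 (17.5 to 12.4 RPKM, -0.56, adjusted p = 7.49e-06) and Map3k14 (7.97 to 5.86 RPKM, -0.52, adjusted p = 3.39e-05) also fell. Irak1, a kinase of the interleukin-1 receptor, was called lower by a small amount with TMM scaling (27.8 and 27.3 RPKM, -0.14, adjusted p = 0.0269). Its RPKM groups overlapped (two-sided exact permutation test p = 0.7), and on the microglia scale it was higher (0.37). The higher gene was Traf3, at 8.29 and 10.97 RPKM (0.32, adjusted p = 3.64e-04).

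Of 15 other brakes on the pathway, 14 were tested, and 7 were lower, 2 higher and 5 not called, with a median of -0.22. The lower count was 4 with scaling by summed RPKM, in both limma fits and without wildtype replicate 1. The higher count was 1 without wildtype replicate 2, DISC1-Δ3 replicate 1 or DISC1-Δ3 replicate 2. On the microglia scale 2 were lower and 8 higher. Socs3, an inhibitor of cytokine receptor signalling, fell from 177.4 ± 3.74 to 105.6 ± 3.796 RPKM (-0.83, adjusted p = 8.04e-11). Zfp36 encodes tristetraprolin, which binds cytokine mRNAs such as that of Tnf and speeds their decay. It fell from 1986 ± 29.97 to 1255 ± 56.9 RPKM (-0.74, adjusted p = 4.32e-10). The higher genes were Rnf11 (21.3 and 33.2 RPKM, 0.56, adjusted p = 1.99e-06) and Tnip1 (13.8 and 17.4 RPKM, 0.25, adjusted p = 0.0104). Over these 7 lists, which hold 99 genes, 88 were tested, and 42 were lower, 9 higher and 37 not called, beside 19.5% lower and 20.4% higher among all tested genes. On the microglia scale 8 of the 88 were lower and 45 higher, beside 2.19% and 79% of all tested genes. Against those shares the lists were still lower more often, and higher less often, than all tested genes.

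**Figure D4:**
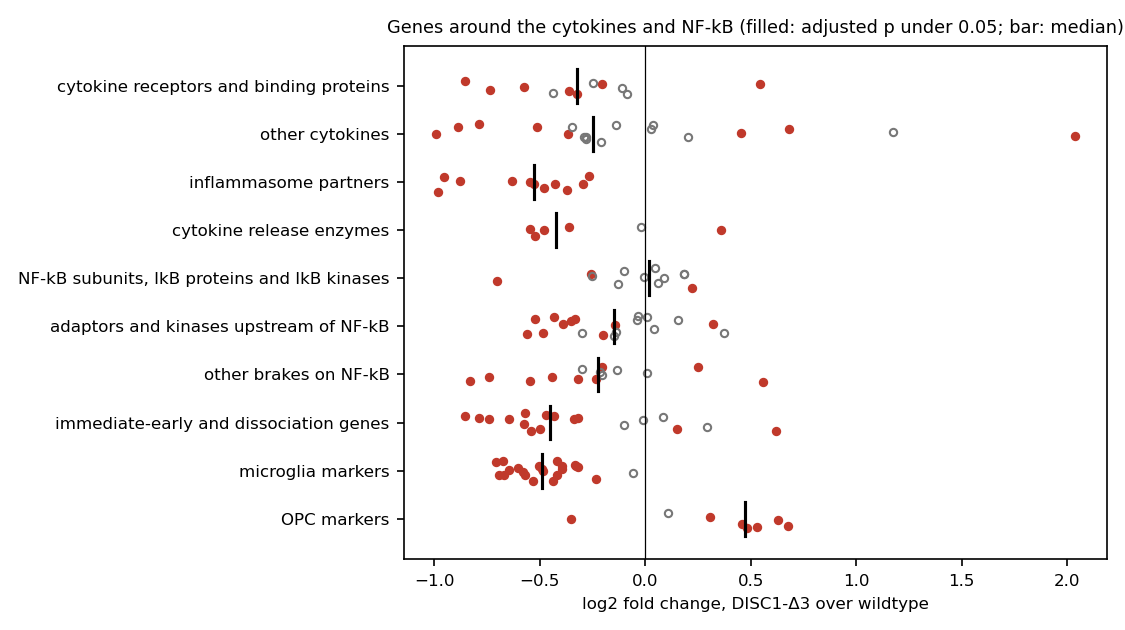
Log2 fold change of DISC1-Δ3 over wildtype (horizontal axis) of each tested gene of 8 lists of pathway genes and of the microglia and OPC markers, with filled red points for an adjusted p under 0.05, open points for the others and a bar at the median. The medians were -0.53 for the inflammasome partners and -0.49 for the microglia markers, 0.02 for the NF-kB subunits, IkB proteins and kinases, and 0.47 for the OPC markers.

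Genes that respond within minutes to stimulation, including to the dissociation of tissue, were listed because Tnf, Nfkbia and Zfp36 can respond in the same way. Of 18 such genes, 12 were lower, 2 higher and 4 not called, with a median of -0.45, against the same shares of all tested genes. On the microglia scale 4 were lower and 9 higher, and with scaling by summed RPKM 4 were higher. The higher count was 1 without DISC1-Δ3 replicate 1 or 2. Their summed CPM was 22070 to 22540 in wildtype and 17650 to 17930 in DISC1-Δ3 libraries. Btg2 fell from 154.1 to 90.04 RPKM (-0.86, adjusted p = 2.84e-11) and Nr4a1 from 179.2 to 120.9 RPKM (-0.65, adjusted p = 1.84e-09). Hspa1b, whose reads can be shared with its near-identical copy Hspa1a, fell from 1424 to 1035 RPKM (-0.54, adjusted p = 1.47e-08). The higher genes were Fosb (117.6 and 190.9 RPKM, 0.62, adjusted p = 2.39e-09) and Jund (316.1 and 370.7 RPKM, 0.15, adjusted p = 0.0140). Zfp36 is on this list too. The part of these genes in the results was not tested.

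Markers of other blood and brain cells were counted in the same libraries. Among border macrophage markers, 3 of 9 were lower, 1 higher and 5 not called (median 0.14), and their summed CPM was 910 to 958 in wildtype and 768 to 783 in DISC1-Δ3 libraries. Of the monocyte and neutrophil markers, 6 of 10 were tested, with 4 lower and 1 higher (median -0.52), at a summed CPM of 64.2 to 72.9 and 53.8 to 56.4. Of the lymphocyte and mast cell markers, 6 of 12 were tested, with 1 lower and 1 higher (median -0.06), at a summed CPM of 19.3 to 22.5 and 21.5 to 24.0. The mature oligodendrocyte markers were lower for 5 of 7 tested genes (median -0.45) and the astrocyte markers for 6 of 8, with 1 higher (median -0.24). The endothelial markers were higher for 4 of 8 (median 0.19), the pericyte and smooth muscle markers for 7 of 8 (0.39) and the neuron markers for 7 of 8 (0.44), with none lower in these 3 lists. No marker on any of these lists was at 0 in all 6 libraries, and their part in the results was not tested.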

How the data were processed

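RNA from 3 wildtype and 3 DISC1-Δ3 OPC preparations was sequenced as single-end reads. The authors deposited, for each gene and library, an expected count, in which reads that match several genes are divided between them, and an RPKM value. Of the expected counts above 0, 90.2% were whole. The submitters' processing notes name Bowtie2 2.2.5 and mm10, and the counting tool and annotation are not given in the sources used here. The study names DESeq2 for its differential expression. The table also holds 4 columns with averages over groups, which were left out.

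Expected counts were rounded to whole reads and tested with edgeR 4.0.16 in R 4.3.3 (quasi-likelihood test, TMM scaling, genotype as the only term) for genes with at least 0.5 RPKM in at least 3 of the 6 libraries. Two-sided p-values received Benjamini-Hochberg adjustment, and calls were made under 0.05. A second fit scaled each library by its summed reads of 22 microglia markers. Alternatives were other scalings and filters, DESeq2 1.42.0, limma 3.58.1 on log2(RPKM + 1) and log2(RPKM + 0.1), a robust variant of the empirical Bayes step, a block for the replicate number, and each library left out in turn. The 10 genes, the gene lists and the tests were chosen with earlier results of these data known.

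Of each pathway list, the 3 called genes with the smallest p and the 2 with the highest mean RPKM were named. All NF-kB subunit, IκB and kinase genes were named, as were, of each marker list, genes among those with the highest RPKM or with the extreme microglia fold changes. Csf1r, Pdgfra, Itgam, P2ry12 and the few higher genes of each list were named by the likeness rule or after their values were seen. Likeness to a microglia marker was the root mean square difference of deviations of log2 CPM over the 6 libraries, for genes with a mean of at least 30 reads. Likeness so measured includes the difference between genotypes. Promoter windows were read from a RefSeq table of GRCm38.p6. The SD and p-values cover the spread between 3 libraries per group, and the reads carry no molecular identifiers, so they are not independent molecules.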

Additional observations from a re-analysis of the deposited data

How the results depend on the processing

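Il1b, Nlrp3 and Nfkbia kept their direction and their call in all 16 alternatives to the reported fit, at log2 fold changes of -1.498 to -1.297, 0.20 to 0.32 and -0.37 to -0.25. The count of the 9 tested genes that were lower was 2 in place of 4 with scaling by RPKM sums and in limma on log2(RPKM + 1) and log2(RPKM + 0.1), where Nfkbiz and Tnfaip3 lost their calls. With scaling by RPKM sums, 14 pathway genes were higher in place of 9, and the 32 to 43 lower and 7 to 10 higher pathway genes when each library was left out in turn compare with 42 and 9. The log2 fold change of Tnf was 0.0063 with scaling by RPKM sums, and 0.0010 and 0.0010 in the limma fits. That of Il1a was 0.045, 0.033 and 0.034 in these 3 settings. The cause was not tested. Leaving out each library in turn gave 3 to 6 of the 9 genes lower, 1 to 2 higher, a log2 fold change of Il1a between -0.16 and 0.023, and 4342 to 6232 genes called in all. Without DISC1-Δ3 replicate 3, Il1a and Il18 were also lower. Il1rn lost its call without wildtype replicate 2, wildtype replicate 3 or DISC1-Δ3 replicate 2. On the microglia scale, 1 gene was lower and 8 were higher in the reported fit and in each of its 9 alternatives. The replicate numbers do not pair the libraries, as same-numbered libraries had correlations of deviations of 0.0414, 0.0339 and -0.0139. The fit with the replicate block called the same 4 and 2 numbers of genes lower and higher, and 5429 genes in all against 5498. DESeq2 called 4600 genes. With a mean of fewer than 10 reads per library, Il10 could not be resolved at this depth.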
